A study of Mus musculus with 6 samples.

Results

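The genes described here encode the proteasome of mouse liver, with its activators and assembly factors and with the immune catalytic subunits that form the immunoproteasome. They were chosen by name, as the rows of the deposited gene table whose symbol begins with Psma to Psmg followed by a digit, with a total count of at least 10 over the 6 libraries. Of 21899 genes in the table, 51 had such a symbol and 49 reached that total. Just inside the limit were Psmc3ip (82 counts in all) and Psma8 (132 counts); outside it were Psme2b, a retrocopy related to Psme2, with 9 counts, and the thymic catalytic subunit Psmb11 with 0 counts. All 49 genes passed the filter on low counts and were tested, and 47 of them have a role in the proteasome. The other 2, Psmc3ip and Psme3ip1, carry the name of a proteasome partner and are counted apart.

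The samples were livers of wild-type C57BL6J mice kept for 6 weeks on 1 of 2 diets. The control group received a diet sufficient in methionine and choline (MCS, 3 libraries), and the other group a diet lacking them (MCD, 3 libraries), a feed that in mice produces steatohepatitis, a fatty and inflamed liver. PolyA RNA was sequenced, and age, sex and whether each library came from a separate mouse are not given in the sources used here, so the p-values reflect the spread among libraries alone, which may be technical. The comparison asks how the liver's RNA differs between the diets, and it was made here for the proteasome.

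The proteasome degrades proteins that carry ubiquitin chains. Its core is a barrel of alpha and beta rings in which the beta subunits Psmb5, Psmb6 and Psmb7 cut peptide bonds, and a regulatory cap with a base of ATPases and a lid recognises, unfolds and feeds in the substrates. In cells exposed to interferon, and constitutively in leukocytes, newly built cores take up Psmb8, Psmb9 and Psmb10 in place of Psmb5, Psmb6 and Psmb7 respectively, and the resulting immunoproteasome favours peptides that fit class I major histocompatibility molecules.

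Total counts ran from 16615469 to 21322771 per library, and 3 counts corresponded to 0.104 to 0.227 CPM (counts brought to a fixed total by TMM-scaled library sizes). The hepatocyte markers summed to between 78400 and 103700 TPM (a share of all transcripts, corrected for length) on the MCS diet and between 84100 and 101500 TPM on the MCD diet, a sum to which albumin (Alb) contributes most. By edgeR's test 4 of the 10 hepatocyte markers fell, 0 rose and 6 did not pass, with a median log2 fold change of -0.85, and 2 of them, Serpina1c and Tat, were also called lower with library size alone. Of 5 cholangiocyte markers 4 rose (Krt7, Epcam, Sox9 and Spp1), from sums of 39.6 to 58.5 TPM on the MCS diet to 239 to 1008 TPM on the MCD diet. Spp1 contributed most of these sums, with 34.7 to 54.1 TPM on the MCS and 225 to 959 TPM on the MCD diet. All 10 leukocyte markers and all 10 macrophage markers rose by edgeR's test, from summed levels of 145 to 181 and 355 to 493 TPM on the MCS diet to 553 to 1463 and 1835 to 6324 TPM on the MCD diet. The lymphocyte lists did not follow throughout. Of 9 T and NK cell markers tested 2 rose and 7 did not pass. Of 3 B cell markers tested 0 rose and 3 did not pass. Their sums were at most 31.9 and 22.2 TPM in any library. Replicate 3 of each diet stood apart from its group in markers of sinusoidal endothelial cells (189 TPM against 45.4 and 59.4 TPM on the MCS diet, 276 TPM against 59.3 and 34.8 TPM on the MCD diet). The same held for stellate cell markers (181 TPM against 80.8 and 75.5 TPM on the MCS diet, 903 TPM against 409 and 167 TPM on the MCD diet). Replicate 3 of each diet was also highest in the leukocyte, macrophage, T and NK cell and B cell sums. MCS replicate 3 was lowest in the cholangiocyte sum, which followed Spp1 (34.7 TPM against 54.1 and 53.4 TPM). Of the other cholangiocyte markers, Krt19 and Epcam were highest in MCS replicate 3 of the MCS libraries (1.82 and 2.14 TPM), and Sox9 was lowest there (0.616 TPM). The results below are therefore also given without both replicates numbered 3 where that changes them. In bulk tissue fewer cells of a type and less RNA per cell cannot be told apart.

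Most proteasome genes did not pass the test between the diets, and 2 stood out as higher on the MCD diet: the lid subunit Psmd8 and the immune catalytic subunit Psmb10. With edgeR's quasi-likelihood test on TMM-scaled counts (Benjamini-Hochberg adjusted p under 0.05 over 12599 genes), these 2 of the 47 genes with a proteasome role rose, or 4.26%, against 14.8% of all genes tested. Another 4 fell (Psmd9, Psmd4, Psmd3 and Psma5), or 8.51%, against 9.97% of all genes, and 41 did not pass. These 6 calls among 47 genes stand beside a share of 24.7% of all genes tested that rose or fell. At an unadjusted p under 0.05, 2 genes were higher and 10 were lower. Shares of all genes at an unadjusted p were not counted, here or below, so such counts have no background beside them. The calls depended on single libraries: without MCS replicate 1 or MCS replicate 2 edgeR called 0 of the 47 genes (2 higher and 5 lower at an unadjusted p under 0.05 in each fit), without MCS replicate 3 or MCD replicate 1 it called Psmd8 alone, without MCD replicate 3 it called 2 higher and 0 lower, and without MCD replicate 2 it called 1 higher and 10 lower. Without both replicates numbered 3, Psmd8, Psmb10 and Psmd10 rose and Psmd4 and Psmd3 fell. The 47 log2 fold changes of MCD over MCS had a median of -0.18, with the middle 50 percent between -0.32 and 0.02, where all tested genes had a median of 0.01 and a middle range of -0.33 to 0.54. Thus 33 of 47 values were below 0, where 48.98% of all genes were.

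The direction of the smaller differences depended on how the libraries were scaled. TMM factors were 0.797 to 0.873 for the MCS and 1.04 to 1.41 for the MCD libraries, and without them the median over all genes moved from 0.01 to 0.57. With library size alone the median of the 47 genes was 0.36, 20 of them were called higher (42.6%, against 40.4% of all genes) and 0 were called lower (against 2.76%), also at an unadjusted p. On log2(TPM + 1), tested with limma, their median was 0.49 beside 0.53 for all genes, and 33 were called higher (70.2%, against 43.2%). In 23 of the 47 genes the CPM ranges of MCS and MCD were separate (48.9%, against 45.3% of all genes), of which 20 were lower and 3 higher on the MCD diet. The split by direction was not counted over all genes. The TPM of every MCD library exceeded that of every MCS library for 40 of 47 genes (85.1%, against 59.1%). Psmd8 and Psmb10 were higher on the MCD diet under each of these scalings.

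**Figure D1:**
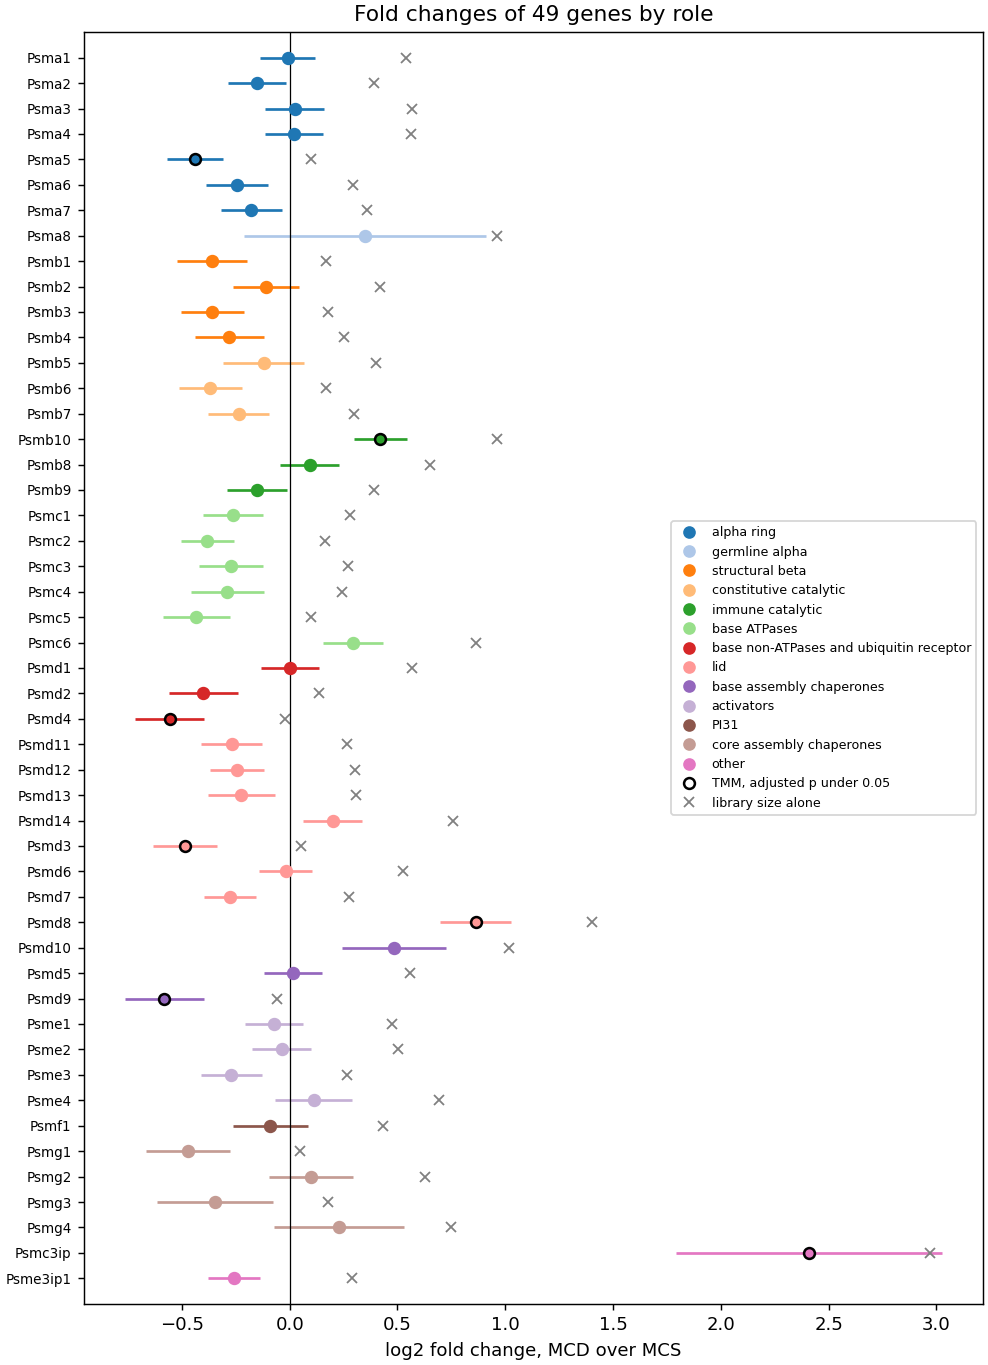
Log2 fold changes of MCD over MCS (horizontal axis) for the 49 genes, coloured by role: circles and bars are the estimate and SE of edgeR with TMM scaling (3 libraries per diet), black rings mark the 7 genes with an adjusted p under 0.05, and crosses give the value with library size alone. Psmd8 (0.86), Psmb10 (0.42) and Psmc3ip (2.41) lie above 0 by either scaling, while Psma5 and Psmd3 lie below 0 by TMM and at 0.10 and 0.05 by library size alone.

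Among the catalytic subunits, the immune subunits were less abundant than the constitutive ones on either diet, and the ratio of Psmb10 to Psmb7 was higher in all 3 MCD libraries. Psmb5 (ENSMUSG00000022193), the chymotrypsin-like subunit, had 109.7, 101 and 103 TPM in MCS replicates 1 to 3 and 147, 163 and 139.9 TPM in MCD replicates 1 to 3. The caspase-like Psmb6 (ENSMUSG00000018286) had 139, 143 and 159 TPM on the MCS and 174.5, 174.5 and 188 TPM on the MCD diet. The trypsin-like Psmb7 (ENSMUSG00000026750) had 97.1, 101 and 112 TPM on the MCS and 141, 130.5 and 145 TPM on the MCD diet. For each of these the MCD libraries were all higher in TPM, yet their TMM-scaled log2 fold changes were -0.12 for Psmb5, -0.37 for Psmb6 and -0.24 for Psmb7, and edgeR called none of them (adjusted p = 0.667, 0.0937 and 0.246). With library size alone the same values were 0.40, 0.17 and 0.30, so their direction depended on the scaling.

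The immune partner of Psmb5, Psmb8 (ENSMUSG00000024338), had 59.9, 48.5 and 48.0 TPM on the MCS and 86.5, 76.1 and 108 TPM on the MCD diet. Psmb9 (ENSMUSG00000096727), the partner of Psmb6, had 18.8, 20.3 and 19.7 TPM on the MCS and 27.7, 25.4 and 29.6 TPM on the MCD diet. Psmb10 (ENSMUSG00000031897), the partner of Psmb7, had 30.7, 30.04 and 34.2 TPM on the MCS and 66.3, 61.4 and 73.65 TPM on the MCD diet. On the TPM scale the MCD libraries were higher throughout for the immune subunits too, with the widest gap for Psmb10 and the highest value of Psmb8 in MCD replicate 3.

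On the CPM scale Psmb10 was the only immune subunit to keep that separation, and it had 29.9, 29.9 and 31.1 CPM on the MCS and 40.0, 44.3 and 37.3 CPM on the MCD diet. Its log2 fold change was 0.42 ± 0.12 (SE, n = 3 libraries per diet, edgeR adjusted p = 0.0373), and 0.96 with library size alone (adjusted p = 0.00239). The call ended with no count filter (0.42, adjusted p = 0.0573) and with all but 1 of the libraries left out in turn: leaving out MCS replicate 1, 2 or 3 or MCD replicate 1 or 2 gave log2 fold changes of 0.32 to 0.43 with adjusted p between 0.0763 and 0.141. Over all alternatives the adjusted p of Psmb10 ran from 0.000682 to 0.141. Without both replicates numbered 3 it was 0.50 (adjusted p = 0.0126). Psmb8 (0.09 ± 0.14, adjusted p = 0.650) and Psmb9 (-0.15 ± 0.14, adjusted p = 0.452) did not pass with TMM scaling. Psmb9 shares exons with Tap1 on the opposite strand (mean 22.7 TPM) and Psmb7 with Nek6 (mean 40.3 TPM), and since the labels do not say whether strand was kept, their reads cannot be told apart there.

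**Figure D2:**
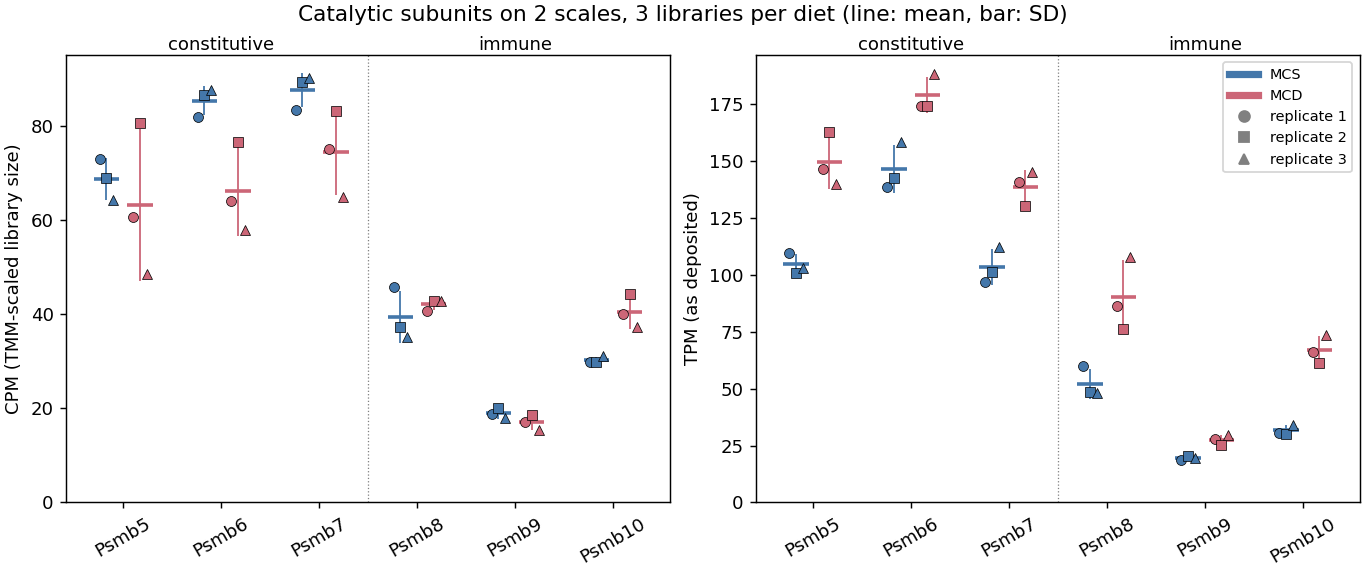
Levels of the 3 constitutive and 3 immune catalytic subunits in each library, as CPM of the TMM-scaled library size (left) and as deposited TPM (right), with the mean and SD of 3 libraries per diet. Psmb10 is higher in the MCD libraries on either scale, while Psmb6 and Psmb7 are lower by CPM and higher by TPM.

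A ratio of TPM values within a library does not depend on the scaling between libraries. It can still hold reads of an overlapping gene, Nek6 for Psmb7 and Tap1 for Psmb9. The ratio of Psmb10 to Psmb7 was 0.316, 0.297 and 0.304 in the MCS libraries against 0.471, 0.470 and 0.507 in the MCD libraries, a 1.58-fold difference (0.66 on the log2 scale). The groups lay far apart relative to their spread, with SDs of 0.05 and 0.06 on the log2 scale. An exact two-sided permutation test gave p = 0.1 (0.15 adjusted over the 3 ratios), and 0.1 is the smallest p that 3 against 3 libraries allow. Leaving out any library, or both replicates numbered 3, gave log2 differences of 0.62 to 0.68.

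For Psmb9 to Psmb6 the ratio was 0.136, 0.142 and 0.124 in the MCS libraries against 0.159, 0.145 and 0.157 in the MCD libraries. These did not overlap, but the log2 difference was only 0.20 (exact permutation p = 0.1, adjusted 0.15), and the nearest libraries of the diets were at 0.142 and 0.145. The ratio of Psmb8 to Psmb5 was 0.546, 0.479 and 0.465 in the MCS libraries against 0.590, 0.467 and 0.772 in the MCD libraries, and the diets overlapped. Its log2 difference of 0.27 (exact permutation p = 0.3, adjusted 0.3) was 0.08 without MCD replicate 3 and 0.04 without both replicates numbered 3. Of the 3 exchanges, therefore, the difference between the diets was widest for Psmb10 and Psmb7, and that between Psmb8 and Psmb5 was within the spread of the libraries.

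Summed over the 3 immune subunits, TPM was 103 ± 5.45 on the MCS and 185 ± 24.5 on the MCD diet, and over the 3 constitutive subunits it was 355 ± 16.7 and 468 ± 5.77 (SD, n = 3). The ratio of these sums was 0.317, 0.286 and 0.272 in the MCS libraries against 0.391, 0.348 and 0.446 in the MCD libraries. The MCD libraries lay above all MCS libraries by 0.43 on the log2 scale, or 1.35-fold, with no test, and by 0.29 without both replicates numbered 3. The summed leukocyte markers were 151, 145 and 181 TPM in MCS replicates 1 to 3 and 793, 553 and 1463 TPM in MCD replicates 1 to 3, none of the 10 markers being at 0 in every library. Among the MCD libraries the order of the ratio was that of the leukocyte markers, replicate 3 being highest and replicate 2 lowest, whereas MCS replicate 3 had the highest leukocyte markers and the lowest ratio of its group. The part of leukocytes in the ratio was not tested.

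**Figure D3:**
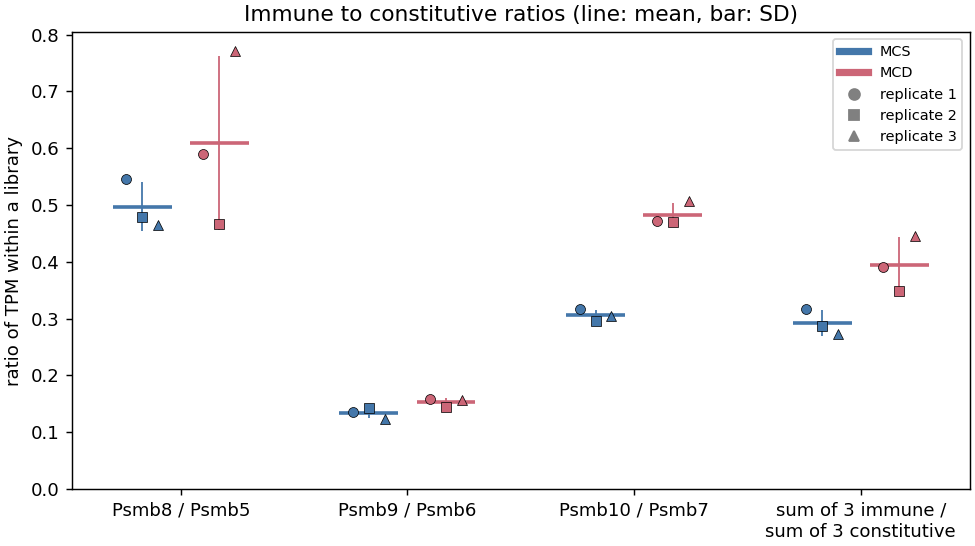
Ratios of immune to constitutive subunits (TPM over TPM within a library, vertical axis from 0) for the 3 exchanged pairs and for their sums, in 3 libraries per diet with mean and SD. The ratio of Psmb10 to Psmb7 lies between 0.297 and 0.316 in MCS libraries and between 0.470 and 0.507 in MCD libraries, whereas the diets overlap for Psmb8 to Psmb5.

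The genes that control or accompany the immune subunits did not move as a block. Of 15 listed genes of interferon signalling and of peptide loading onto class I molecules, 13 were tested, 3 rose, 1 fell and 9 did not pass, beside 14.8% of all genes that rose and 9.97% that fell. Ifngr1 and Ifngr2, the receptor chains for interferon gamma, rose by 1.20 ± 0.19 and 0.89 ± 0.15 on the log2 scale (edgeR adjusted p = 0.00328 and 0.00461). Irf8, a transcription factor of myeloid and B cells, rose by 1.60 ± 0.28 (adjusted p = 0.00576). Irf9, a transcription factor of the response to type I interferon, fell by 0.79 (SE 0.20, adjusted p = 0.0229), and by 0.20 with library size alone (adjusted p = 0.563). Its call also ended when MCS replicate 2 or 3 or MCD replicate 1 was left out (adjusted p = 0.0789, 0.0640 and 0.0790). Irf1 and Tap1, which are induced by interferon gamma, did not pass (edgeR adjusted p = 0.964 and 0.0751, with log2 values of 0.01 and -0.45), and Ifng itself had at most 3 counts in any library and was not tested. Without both replicates numbered 3, Tap1 fell by 0.62 on the log2 scale (adjusted p = 0.00373) and library size alone gave 0.11 for it in all libraries. With library size alone 7 of the 13 genes were called higher and 0 lower, beside 40.4% and 2.76% of all genes called at the same adjusted p. At an unadjusted p under 0.05 the numbers were 9 and 0, a threshold at which all genes were not counted.

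The activator that caps immunoproteasomes is built from Psme1 and Psme2 and is likewise induced by interferon. Psme1 (ENSMUSG00000022216) had 117, 108 and 109.8 CPM on the MCS and 108, 112 and 97.6 CPM on the MCD diet. Psme2 (ENSMUSG00000079197) had 67.1, 59.1 and 73.2 CPM on the MCS and 66.2, 68.4 and 59.9 CPM on the MCD diet. The diets overlapped for both genes, and the log2 fold changes of -0.07 and -0.04 did not pass (edgeR adjusted p = 0.723 and 0.866), where library size alone gave 0.47 and 0.50 with adjusted p of 0.0193 and 0.0281. Psme3, the nuclear activator, and Psme4, which serves in DNA repair and in germ cells, were at -0.27 and 0.11 (adjusted p = 0.190 and 0.681). Psmf1, which encodes the proteasome inhibitor PI31, had 40.3, 39.3 and 41.3 CPM on the MCS and 37.9, 46.96 and 28.9 CPM on the MCD diet, with overlap (-0.09 ± 0.18, adjusted p = 0.739). Psme1 shares exons with Emc9 on the opposite strand (mean 23.9 TPM).

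The subunits that make up the complete particle, 31 genes when the constitutive catalytic subunits are counted, summed to 2613 ± 153 TPM on the MCS and 3728 ± 238 TPM on the MCD diet (SD, n = 3). By TMM scaling, 1 of the 31 rose (3.23%, against 14.8% of all genes), 3 fell (9.68%, against 9.97%) and 27 did not pass, with a median log2 fold change of -0.25, against 0.29 with library size alone. The mean TPM of the 31 subunits spanned 9.0-fold on the MCS and 11.1-fold on the MCD diet, from lowest to highest. The ATPase Psmc6 was lowest in every library (17.8 to 50.2 TPM). Psmb4, a structural beta subunit, was highest in all MCS libraries (159 to 172 TPM) and Psmd8 in all MCD libraries (366 to 449 TPM).

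Psmd8 (ENSMUSG00000030591), a lid subunit, had 147, 144 and 143 CPM in the MCS libraries against 287.5, 280.4 and 222 CPM in the MCD libraries. Every MCD library lay far above the highest MCS library. Psmd8 rose by 0.86 ± 0.17 on the log2 scale (edgeR adjusted p = 0.00813), and by 1.401 with library size alone (adjusted p = 0.000857). In TPM it was at 142, 137 and 149 on the MCS and 449, 366 and 413 on the MCD diet, or 2.87-fold higher, which took it from ranks 2, 3 and 4 among the 31 subunits in MCS replicates 1 to 3 to rank 1 in each MCD library. Its adjusted p was between 2.56e-06 and 0.0532 over all alternatives, and the only ones above 0.05 left out MCS replicate 1 (0.0517) or MCS replicate 2 (0.0532), with log2 fold changes of 0.86 and 0.85. Without both replicates numbered 3 Psmd8 was at 0.96 (adjusted p = 0.000407).

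Setting each gene against the median of the 31 subunits in the same library removes the scaling between libraries, and this measure was chosen after the data had been seen and is given without a test. Psmd8 was 0.74 ± 0.07 log2 units above that median on the MCS and 1.90 ± 0.08 above it on the MCD diet, a difference of 1.17. Of the other subunits, Psmc6 and the lid's deubiquitinase Psmd14 shifted by 0.60 and 0.52, and the remaining 28 lay between -0.25 for Psmd4 and 0.34 for the alpha subunit Psma4. For 13 of 31 subunits the MCS and MCD values were separate, with 11 higher (35.5%, against 36.6% of all genes tested on the same measure) and 2 lower (Psmd4 and Psmd3, or 6.45%, against 9.1%) on the MCD diet, shares close to or below those of all genes. On the same measure Psmb10 differed by 0.73, Psmb8 by 0.43, Psmb9 by 0.14, Psme1 by 0.24 and Psme2 by 0.27, and none of these overlapped between the diets. The nearest MCS and MCD libraries almost touched for Psmb8 (-0.440 and -0.424) and Psmb9 (-2.03 and -2.02). They were close for Psme1 (0.827 and 0.860) and Psme2 (0.260 and 0.339), and far apart for Psmb10 alone (-1.40 and -0.76).

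**Figure D4:**
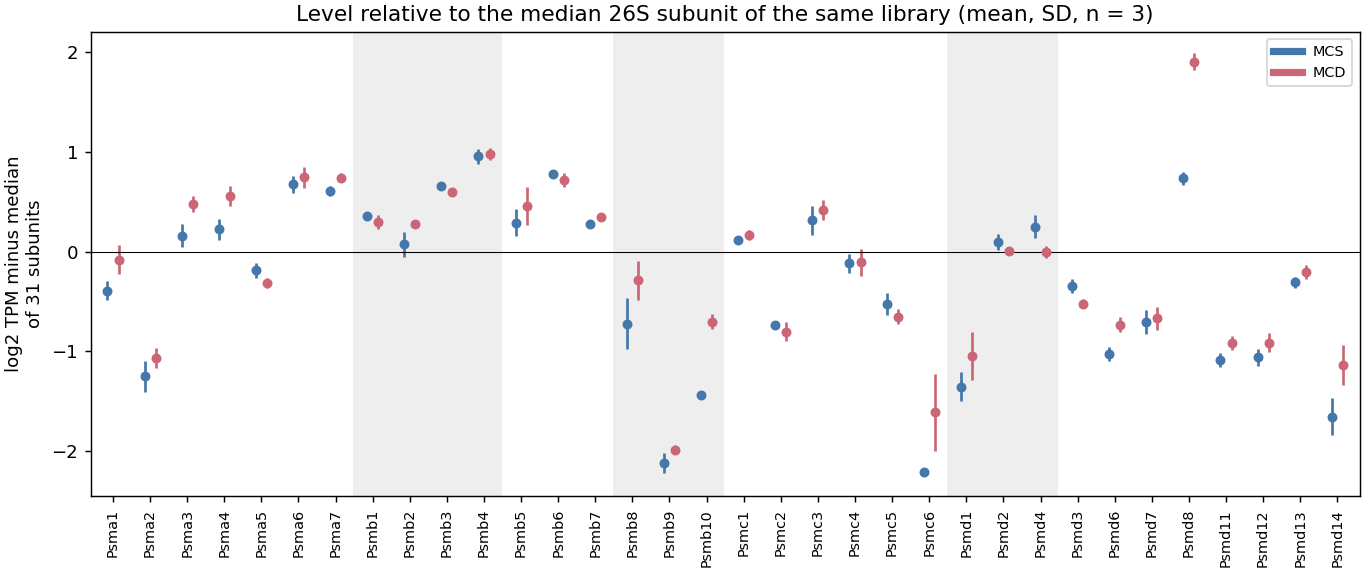
Level of the 31 subunits and the 3 immune subunits as log2 TPM minus the median of the 31 subunits in the same library (vertical axis), as mean and SD of 3 libraries per diet, with shading that separates the role groups. Psmd8 moves from 0.74 to 1.90 and Psmb10 from -1.44 to -0.70, while most subunits keep their place.

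In the alpha ring, whose gates open the core, Psma5 was the only 1 of 7 members to pass. Psma5 (ENSMUSG00000068749) had 68.6, 65.0 and 70.5 CPM on the MCS and 50.4, 55.0 and 45.0 CPM on the MCD diet. The diets did not overlap, and Psma5 fell by 0.44 on the log2 scale with TMM scaling (SE 0.13, edgeR adjusted p = 0.0382), but had a log2 fold change of 0.10 with library size alone (adjusted p = 0.509). The other 6 lay between -0.25 and 0.02. None of the 4 structural beta subunits passed (-0.36 to -0.11). The most abundant of them, Psmb4 (ENSMUSG00000005779), had 146, 143 and 141 CPM on the MCS and 118, 138 and 98.7 CPM on the MCD diet, lower without overlap, yet 0.25 by library size alone, where TMM gave -0.28 (adjusted p = 0.232). Psma8, the alpha subunit of germ cells, had 11 to 18 counts in the MCS libraries against 14 to 54 counts in the MCD libraries, and its log2 fold change of 0.35 ± 0.56 (adjusted p = 0.681) is not resolved at that depth.

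The 6 ATPases of the base, which unfold the substrate, did not pass either, and 5 of them had negative log2 fold changes with TMM scaling (-0.43 to -0.26) and positive ones with library size alone (median of the 6, 0.26). The most abundant, Psmc3 (ENSMUSG00000002102), had 108, 120.2 and 102 CPM on the MCS and 96.4, 97.3 and 80.1 CPM on the MCD diet, without overlap (-0.27 ± 0.15, adjusted p = 0.203), and it shares exons with Slc39a13 on the opposite strand (mean 9.39 TPM). Psmc2 missed the threshold narrowly (-0.38 ± 0.12, adjusted p = 0.0504). The exception in direction was Psmc6 (ENSMUSG00000021832), with 29.4, 30.4 and 30.3 CPM on the MCS and 32.8, 34.7 and 42.9 CPM on the MCD diet (0.29 ± 0.14, adjusted p = 0.151). Its MCD libraries were all higher on either scale, with replicate 3 highest.

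Psmd4 (ENSMUSG00000005625), a receptor for ubiquitin chains, had 93.8, 105.9 and 92.3 CPM on the MCS and 66.7, 77.0 and 54.8 CPM on the MCD diet. Psmd3 (ENSMUSG00000017221), a lid subunit, had 102.5, 112 and 103 CPM on the MCS and 74.6, 86.8 and 65.3 CPM on the MCD diet. Psmd9 (ENSMUSG00000029440), a chaperone of base assembly, had 37.6, 47.3 and 42.8 CPM on the MCS and 28.5, 34.8 and 21.98 CPM on the MCD diet. All MCD libraries lay below all MCS libraries for these genes. With TMM scaling they fell by 0.56 (Psmd4), 0.49 (Psmd3) and 0.58 (Psmd9), with edgeR adjusted p of 0.0348, 0.0439 and 0.0463, but with library size alone the log2 fold changes were -0.02, 0.05 and -0.06, and on log2(TPM + 1) they were 0.10, 0.17 and 0.17, none of them called. The calls of Psmd4, Psmd3, Psmd9 and Psma5 each remained in 1 of the 6 fits that left out a library, that without MCD replicate 2, and ended in the other 5, with adjusted p of at most 0.134, 0.154, 0.159 and 0.129 respectively. Without both replicates numbered 3 Psmd4 and Psmd3 were still called lower (adjusted p = 0.0208 and 0.0391), while Psmd9 and Psma5 were not. Psma5, Psmd3 and Psmd9 each share exons with a noncoding gene on the opposite strand, as does Psmb8.

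The assembly chaperones were far less abundant than the subunits they serve. The 4 chaperones of the core, Psmg1 to Psmg4, had mean levels of 12.0 to 22.2 TPM over all libraries, and the 3 of the base, Psmd5, Psmd9 and Psmd10, 12.2 to 26.7 TPM, where the median subunit was at 100.4 TPM. None of the core chaperones passed. The most abundant, Psmg1 (ENSMUSG00000022913), had 14.8, 14.5 and 18.3 CPM on the MCS and 11.8, 13.6 and 8.99 CPM on the MCD diet, lower without overlap at -0.47 ± 0.19 with TMM scaling (adjusted p = 0.106) and 0.05 with library size alone. Psmd10, also known as gankyrin, was at 0.48 ± 0.24 (adjusted p = 0.172) and reached 0.84 (adjusted p = 0.0116) without both replicates numbered 3. MCS replicate 3 had 10.4 CPM where the other MCS libraries had 7.08 and 5.89 CPM.

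Psmc3ip, a meiotic recombination factor and no part of the proteasome, had 3, 2 and 4 counts in the MCS libraries against 32, 13 and 28 counts in the MCD libraries. It rose by 2.41 ± 0.62 on the log2 scale (edgeR adjusted p = 0.0232), a call that ended without any MCS library or without MCD replicate 1 (adjusted p of 0.0602 to 0.111). It shares exons with Mlx on the opposite strand (mean 29.0 TPM), and reads of the pair cannot be told apart. Psme3ip1, named as a partner of Psme3, was at -0.26 and did not pass with TMM scaling.

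The 250 bases before the start of transcription were searched on both strands for short motifs in RefSeq windows of GRCm38.p6, a build older than that of the counts. Windows were given for 39 of the 47 genes (42 windows). TGACNNNGC, the antioxidant response element to which Nfe2l1 and Nfe2l2 bind, was in 5 of these windows (11.9%, against 10.2% of all 32851 windows). The interferon-stimulated response element GAAANNGAA was in 3 (7.14%, against 7.13%), the gamma-activated site TTCNNNGAA in 2 (4.76%, against 7.02%) and the NF-Y box CCAAT in 13 (31%, against 33.8%). The shares of the first and of the interferon motif in proteasome genes were thus close to those of all windows. Psmb5 and Psmb6 held the antioxidant element, starting 47 and 9 bases before the start of transcription, and Psmb8 held the gamma-activated site 97 bases before it. The antioxidant element was also in windows of Psmd9, Psmd12 and Psmc6, and the gamma-activated site in that of Psmg1. For Psmb7, the remaining constitutive catalytic subunit, no window was given. No motif searched was found in the windows of Psmb10 and Psmd8, the genes that rose. The stretches of 100 bases nearest to the start that are clear of annotated exons are printed for the constitutive Psmb5 and Psmb6 (chr14:54618023-54618122, minus strand, and chr11:70525257-70525356, plus strand) and for Psmb10 and Psmd8 (chr8:105938445-105938544 and chr7:29180702-29180801, both minus strand), 5′ to 3′ on the strand of the gene with the antioxidant element in capitals.
Psmb5: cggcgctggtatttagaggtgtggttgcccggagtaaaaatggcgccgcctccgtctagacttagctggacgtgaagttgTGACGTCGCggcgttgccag
Psmb6: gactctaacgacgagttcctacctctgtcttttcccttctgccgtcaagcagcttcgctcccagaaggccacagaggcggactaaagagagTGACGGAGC
Psmb10: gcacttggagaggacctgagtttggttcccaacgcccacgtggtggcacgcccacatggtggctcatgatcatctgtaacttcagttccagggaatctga
Psmd8: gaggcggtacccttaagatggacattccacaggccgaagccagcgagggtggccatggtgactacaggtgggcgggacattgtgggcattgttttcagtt

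Of 30 other genes of the ubiquitin and proteasome pathway, 28 were tested, of which 2 rose, 3 fell and 23 did not pass (beside 14.8% and 9.97% of all genes that rose and fell), with a median log2 fold change of -0.18, equal to that of the proteasome genes. Nfe2l2, the regulator of the antioxidant response, had 53.1, 52.3 and 69.2 CPM on the MCS and 103, 79.1 and 90.9 CPM on the MCD diet and rose by 0.64 ± 0.17 (edgeR adjusted p = 0.0240). Its MCD libraries were higher without overlap, and the call ended when MCS replicate 1 or 2 or MCD replicate 1 was left out (adjusted p = 0.112, 0.114 and 0.102). Nfe2l1, the factor that raises proteasome genes when the proteasome is inhibited, did not pass (-0.34 ± 0.16, adjusted p = 0.145), and library size alone gave 0.21. Ddi2, the protease that activates Nfe2l1, had 243, 249 and 246 CPM on the MCS and 131, 147.5 and 125 CPM on the MCD diet. It was lower in every MCD library and fell by 0.87 (SE 0.15, adjusted p = 0.00541), and by 0.33 with library size alone, where it missed the threshold (adjusted p = 0.0574).

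Nploc4, a cofactor of the segregase Vcp that hands ubiquitinated proteins to the proteasome, fell by 0.57 with TMM scaling (SE 0.15, edgeR adjusted p = 0.0272), was at -0.03 with library size alone and at 0.09 on log2(TPM + 1). The Nploc4 call ended when MCS replicate 1 or 2 or MCD replicate 1 was left out (adjusted p of 0.0869 to 0.117). Uba6, a ubiquitin-activating enzyme, had 2.53, 2.04 and 1.76 CPM on the MCS and 3.78, 3.48 and 5.40 CPM on the MCD diet and rose by 0.999 ± 0.32 (adjusted p = 0.0495), a call that remained with MCD replicate 2 left out and ended with any other library left out (adjusted p of 0.0906 to 0.1396), and at 0.206 without both replicates numbered 3. It also ended with limma-voom (0.0652) and with no count filter (0.0579). The assembly factor Pomp and the ubiquitin receptor Adrm1, subunits or partners with other symbols, were at -0.21 and -0.49 (adjusted p = 0.304 and 0.0515), and none of the 9 tested genes of that kind passed. With library size alone 11 of the 28 genes were called higher and 0 lower, near the 40.4% of all genes called higher at the same adjusted p. At an unadjusted p under 0.05 the numbers were 15 and 1, a threshold at which all genes were not counted.

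The authors' deposited table, whose fold changes rest on mean TPM, gave all 49 genes a positive log2 fold change, and 10 of them an FDR under 0.05. Shares of all genes by the authors' values were not counted, so these numbers do not set the proteasome apart. On log2(TPM + 1) all tested genes had a median log2 fold change of 0.53, and 43.2% were called higher. Psmd8 was at 1.52 in the authors' deposited table, with an FDR of 2.78e-09.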

How the data were processed

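PolyA RNA of mouse liver was measured in 3 MCS and 3 MCD libraries, grouped by their titles. The submitters' processing notes name the build GRCm39 and, without their roles, RSEM, StringTie 1.3.1, HISAT2 2.1.0, Bowtie2 2.2.8 and fastp 0.18.0; use of strand is not stated there. The deposited counts are whole numbers, but 64 zeros come with a positive TPM, and the values were read here as RSEM-type estimated counts that the authors rounded. The deposited TPM, the log2 fold change and the p-value and FDR columns are the authors' own, and no source used here names the test behind the last.

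Counts were tested with edgeR 4.0.16 in R 4.3.3 (TMM, filterByExpr with a minimum count of 10, robust quasi-likelihood fit, diet as the only term) on 12599 of 21899 genes, with calls made at an adjusted p (Benjamini-Hochberg) under 0.05; 5317 genes had 0 counts throughout. SE values come from the fold change and the F statistic (log2 fold change over root F). Alternatives used DESeq2 1.42.0, limma 3.58.1 (voom, and log2 of TPM plus 1 or 0.1), other scalings, no filter, a replicate block and each library left out. The script was tested on simulated data. Ratios used exact permutation tests in Python 3.11.15. Replicates of a diet differed by more than counting error (chi-square over its degrees of freedom, 14.0 to 158). Gene overlaps came from GENCODE on GRCm38, in which 50 of the 51 symbols were found: 24 overlapped another gene and 15 shared exons with it.

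Members, role groups and the other gene lists were chosen with earlier results of these data known. Values in every library are given for the 6 exchangeable catalytic subunits, Psme1 and Psme2, and in each role group for the called members with the smallest p or, with none called, for the member with the highest mean TPM; Psmc6 and Psmd10 were added after their values were seen. In the other lists, the called genes with the smallest p are named, and further genes were named after their values were seen; some listed genes are not reported here. No tables of protein sequence were used here.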

Additional observations from a re-analysis of the deposited data

How the results depend on the processing

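Of the 49 genes, 3 rose and 4 fell with TMM scaling. With library size alone 21 rose and 0 fell, with library sizes computed without the 50 most abundant genes 11 rose and 0 fell, and on log2(TPM + 1) and log2(TPM + 0.1) 34 rose and 0 fell. With no count filter 2 fell and 2 rose (Psmd8 and Psmc3ip), and with both replicates numbered 3 left out, a setting chosen after seeing the data, 2 fell and 4 rose. Leaving out each library in turn gave 0 to 3 genes that rose and 0 to 10 that fell, the 10 without MCD replicate 2. DESeq2 gave 3 and 6, DESeq2 size factors 3 and 5, limma-voom 2 and 3. Over all genes, 1861 rose and 1256 fell with TMM scaling, 5095 and 348 with library size alone, 3607 and 492 without the abundant genes, 5449 and 264 on log2(TPM + 1) and 5718 and 274 on log2(TPM + 0.1); with a library left out the lowest numbers were 946 and 400 and the highest, without MCD replicate 2, 2363 and 2072. The sign of the log2 fold change turned, where either value was called, with library size alone for Psma1 0.54, Psma5 0.10, Psma7 0.36, Psmb2 0.42, Psmb5 0.40, Psmd3 0.0507, Psmd6 0.52, Psme1 0.47, Psme2 0.50 and Psmf1 0.43, without the abundant genes for Psmd6 0.35, and on log2(TPM + 1) for Psma1 0.65, Psma2 0.52, Psma5 0.22, Psma6 0.42, Psma7 0.48, Psmb2 0.55, Psmb4 0.37, Psmb5 0.51, Psmb7 0.42, Psmb9 0.47, Psmc1 0.40, Psmc3 0.45, Psmc4 0.35, Psmd4 0.10, Psmd11 0.50, Psmd12 0.49, Psmd13 0.45, Psmd3 0.17, Psmd6 0.63, Psmd7 0.38, Psmd9 0.17, Psme1 0.58, Psme2 0.61, Psmf1 0.59 and Nploc4 0.0851. On log2(TPM + 0.1) the same genes turned, with the same values to 2 decimals except for Nploc4 0.0871, Psma1 0.66, Psma2 0.53, Psmb9 0.48, Psmc4 0.36, Psmd11 0.51, Psmd12 0.50, Psmd6 0.64, Psmd7 0.39, Psme1 0.59 and Psmf1 0.60. These scalings differ by construction in how far the abundant genes set the library total. The mean differences in the log2 ratios of immune to constitutive subunits kept their direction under each alternative run: 0.22 to 0.45 with a library left out for Psmb8 to Psmb5 apart from 0.08 without MCD replicate 3, 0.14 to 0.24 for Psmb9 to Psmb6, 0.62 to 0.68 for Psmb10 to Psmb7 and 0.34 to 0.52 for the sums. Between same-numbered libraries the difference for Psmb8 to Psmb5 ran from -0.04 to 0.73 and so changed sign. For Psmb9 to Psmb6, Psmb10 to Psmb7 and the sums it was at least 0.03, 0.57 and 0.28.

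The labels give both diets replicates 1 to 3, and same-numbered libraries deviated together with correlations of 0.0873, 0.153 and 0.229, so the numbers were not taken as pairs; every library except MCS replicate 1 correlated best with its own number, a hint from the data. With the replicate block 2 genes rose and 3 fell, and Psmb10, Psma5 and the pathway gene Uba6 no longer passed (adjusted p = 0.0626, 0.0576 and 0.0630).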
